A study of Mus musculus with 21 samples.

Results

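Expression of 10 genes of zinc handling was followed in mouse brain RNA-seq: the metallothioneins Mt1, Mt2 and Mt3, the transcription factor gene Mtf1, the zinc exporter genes Slc30a1, Slc30a3 and Slc30a10, and the importer genes Slc39a8, Slc39a10 and Slc39a14. They were chosen by gene symbol, and all 10 were found among the 21872 symbols that each of the deposited count tables holds. The libraries came from mice given water (control) or trientine (TETA), a copper-chelating drug, and the labels call the trientine group copper-deficient. Embryonic day 18.5 (E18.5) had 6 control and 6 TETA libraries, and the age of 7 weeks after birth had 5 control and 4 TETA libraries, 21 in all. Mouse brain is the labelled tissue throughout, and the extraction protocol names the prefrontal cortex of males at 7 weeks only. The region and sex at E18.5, the strain, and the dose and route of trientine are not given in the sources used here. Nothing in the labels says that replicates are separate animals, or what the hyphenated replicate numbers at E18.5 (1-1 to 3-2) stand for. Each library was treated as an independent sample, so p-values measure the spread between these samples, which may be technical at least in part. Trientine can also bind zinc, and the question here was whether genes of zinc handling differed between TETA and control at either stage, and how far they differed between the stages.

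Metallothioneins are small cysteine-rich proteins that bind zinc and copper. MTF-1, the product of Mtf1, is a transcription factor that senses zinc and binds metal response elements in DNA, and Mt1, Mt2 and Slc30a1 are well-known targets of it in mice. Members of the SLC30 (ZnT) family move zinc out of the cytosol, to the outside of the cell or into organelles, and members of the SLC39 (ZIP) family move it into the cytosol. In the brain, Mt1 and Mt2 are expressed mainly in astrocytes, Mt3 is a metallothionein characteristic of the nervous system, and the product of Slc30a3 (ZnT3) loads zinc into glutamatergic synaptic vesicles.

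Promoter sequences of 9 of the 10 genes were matched in RefSeq (assembly GRCm38.p6, the same genome as mm10). Those of 4 genes are shown because they belong to the metallothionein cluster and to the exporter gene that MTF-1 is known to act on. Each is the 250 bases before the annotated start, 5′ to 3′ on the strand of the gene, and capitals mark the core of the metal response element, TGCACNC or TGCGCNC, on either strand. The stretch of Mt1 lies at chr8:94178839-94179088, Mt2 at chr8:94172368-94172617, Mt3 at chr8:94152357-94152606 and Slc30a1 at chr1:191906531-191906780, all on the plus strand.
Mt1: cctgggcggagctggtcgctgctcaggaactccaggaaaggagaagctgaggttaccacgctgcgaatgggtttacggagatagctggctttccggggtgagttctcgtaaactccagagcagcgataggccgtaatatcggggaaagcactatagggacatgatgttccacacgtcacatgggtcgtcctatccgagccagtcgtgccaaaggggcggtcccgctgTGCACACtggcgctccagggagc
Mt2: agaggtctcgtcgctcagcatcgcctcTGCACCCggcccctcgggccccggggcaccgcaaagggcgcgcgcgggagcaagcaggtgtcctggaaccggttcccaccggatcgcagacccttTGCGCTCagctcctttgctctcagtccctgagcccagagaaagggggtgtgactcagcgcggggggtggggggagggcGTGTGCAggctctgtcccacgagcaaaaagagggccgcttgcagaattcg
Mt3: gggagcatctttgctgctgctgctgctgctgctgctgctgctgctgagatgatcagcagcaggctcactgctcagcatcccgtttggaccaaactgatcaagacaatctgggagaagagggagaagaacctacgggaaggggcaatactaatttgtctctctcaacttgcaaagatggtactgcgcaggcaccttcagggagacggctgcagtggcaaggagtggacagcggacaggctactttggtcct
Slc30a1: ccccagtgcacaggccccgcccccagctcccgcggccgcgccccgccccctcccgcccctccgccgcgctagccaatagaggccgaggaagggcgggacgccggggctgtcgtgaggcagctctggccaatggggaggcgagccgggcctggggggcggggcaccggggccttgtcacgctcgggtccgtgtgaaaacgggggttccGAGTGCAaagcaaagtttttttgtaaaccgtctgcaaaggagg

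The motif was counted in these bases together with the first 50 after the start, a window of 300 bases. The window of Mt2 held 4 matches, 3 of them before the start, and that of Mt1 held 3, 1 of them before the start. That of Slc30a1 held 2, 1 of them before the start, and that of Mt3 held 1, which lies after the start. At least 1 match was present in 25.7% of the 32851 RefSeq windows of this length, at least 2 in 7.11%, at least 3 in 1.97% and at least 4 in 0.517%. Slc30a10 held 3 matches, of which a pair on opposite strands overlap. Neither the Mtf1 window nor the 2 Slc39a10 windows held one, and 1 of the 2 windows of Slc30a3 and of Slc39a8 did. A match of these letters is a description and not a measured binding site.

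In the GENCODE M21 annotation of GRCm38, the metallothionein genes lie on the plus strand of chromosome 8 in the order Mt3 (chr8:94152607-94154146), Mt2 (chr8:94172664-94173568) and Mt1 (chr8:94179082-94180327). Mt3 and Mt2 are 18517 bases apart, and Mt2 and Mt1 are 5513 bases apart. The other genes are on other chromosomes: Mtf1 at chr4:124802104-124849800, Slc30a1 at chr1:191906767-191913247, Slc30a10 at chr1:185454848-185468762, Slc39a10 at chr1:46807544-46892852, Slc39a8 at chr3:135825279-135888572, Slc30a3 at chr5:31086106-31108237 and Slc39a14 at chr14:70303469-70351425. Exons of Mt2, Mtf1, Slc30a1 and Slc30a10 overlap exons of a gene on the opposite strand. The libraries were made with a stranded kit, but the strand setting of the counting is not given, so reads of such pairs may not have been told apart.

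The E18.5 libraries held 14678265 to 24308555 counts each, and the 7-week libraries 17838051 to 24035857. No pair of replicates within a group agreed within sampling noise: over all such pairs the chi-square per gene was at least 2.30. At 7 weeks all 12 striatal neuron markers examined were lower in TETA, and their summed level was 392 to 521 CPM (counts scaled to library size, with TMM factors) in the TETA libraries against 870 to 1084 in the controls. The summed level of 11 astrocyte markers at 7 weeks was 5460 to 5857 CPM in TETA against 6010 to 6906 in controls, without overlap, with none of the 11 at 0 in all libraries. Slc1a2 alone held 4126 CPM of this sum in controls and 3547 CPM in TETA on average. Taken one by one, 2 of the 11 markers did not overlap, against 11.2% of all genes tested. The summed level of 8 meningeal fibroblast markers did not overlap at 7 weeks either, at 42.4 to 64.7 CPM in TETA against 66.4 to 78.2 in controls. At E18.5 these sums overlapped between the groups, while the summed level of 4 Y-linked genes ran from 0 to 219 CPM, against 136 to 161 CPM at 7 weeks. This Y-linked sum was at most 0.06 CPM in E18.5 control replicates 2-1 and 3-2 and TETA replicates 2-2, 3-1 and 3-2. In the other E18.5 libraries it was 167 to 219 CPM. Both sexes were thus present in each E18.5 group, and the libraries of a group were not all from 1 animal. The part of these differences in the results below was tested only where stated.

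TETA was compared with control within each stage by edgeR's quasi-likelihood test over all genes tested, with Benjamini-Hochberg adjustment (the edgeR adjusted p below) and a threshold of 0.05. No gene of the 10 passed at either stage. At E18.5 this was also the background, since 0% of the 13794 genes tested passed. Without adjustment 660 genes (4.78%) had p under 0.05, none of them among the 10, and DESeq2 called 10 genes, again none of the zinc genes. At 7 weeks 9.96% of the 14240 genes tested passed, 808 higher (5.67%) and 610 lower (4.28%) in TETA. Of the 10 genes, 3 (Mt1, Mt3 and Mtf1) were under 0.05 before adjustment at 7 weeks, against 24% of all genes tested, and DESeq2 called none of the 10, with none under 0.05 before adjustment. The TETA and control libraries overlapped for all 10 genes at both stages, while 0.319% of all genes at E18.5 and 11.2% at 7 weeks did not overlap. The median log2 difference of the 10 genes was -0.01 at both stages, beside a median of -0.00 over all genes at E18.5 and 0.00 at 7 weeks.

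**Figure D1:**
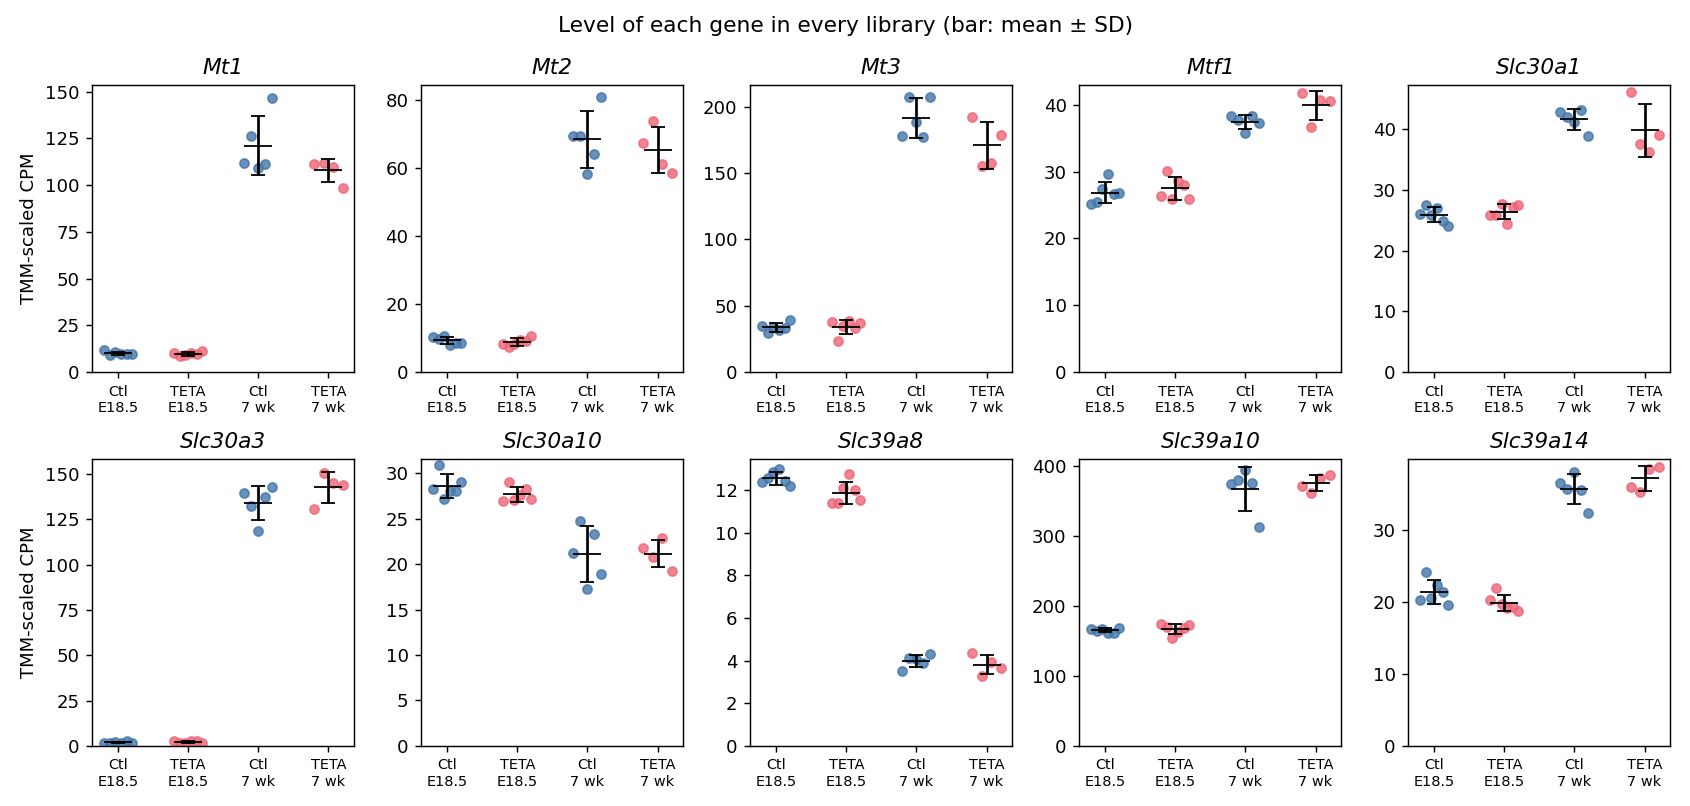
Level of each of the 10 genes in every library, in CPM on a linear axis, by group, with 1 point per library and a bar for the group mean ± SD. TETA and control points overlap at each stage in every panel, and E18.5 and 7 weeks do not.

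At E18.5 Mt1 ran from 9.22 to 11.6 CPM in controls (median 9.66) and from 8.52 to 11.5 CPM in TETA (median 9.77). The TETA range lay nearly on top of the control range, and the log2 difference was -0.03 (SE 0.077, 95% interval -0.19 to 0.13). Mt2 ran from 7.93 to 10.5 CPM in controls (median 9.15) and from 7.39 to 10.7 CPM in TETA (median 8.67), a difference of -0.05 (SE 0.092, -0.24 to 0.14). Mt3 ran from 29.3 to 39.1 CPM in controls (median 33.8) and from 23.7 to 38.5 CPM in TETA (median 35.5), a difference of 0.01 (SE 0.089, -0.18 to 0.20). One TETA library, replicate 1-2, stood below the others for Mt3, and the edgeR adjusted p was at least 0.996 for each of the 3 metallothioneins.

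The libraries also overlapped for the zinc sensor and the transporters at E18.5. Mtf1 ran from 25.2 to 29.6 CPM in controls and from 25.9 to 30.1 CPM in TETA, with a log2 difference of 0.03 (SE 0.054). The exporter to the cell surface, Slc30a1, ran from 24.1 to 27.5 CPM in controls and from 24.4 to 27.6 CPM in TETA, with a difference of 0.03 (SE 0.050). Slc30a10, a plasma membrane transporter best known for manganese efflux, differed by -0.04 (SE 0.047). Among the importers, Slc39a10 differed by 0.02 (SE 0.035), and the zinc, iron and manganese importers Slc39a8 and Slc39a14 differed by -0.08 (SE 0.054) and -0.10 (SE 0.058). The intervals of these 6 genes all lay within -0.22 and 0.14 on the log2 scale. The synaptic vesicle transporter Slc30a3 had the widest one, -0.33 to 0.45, at 24 to 67 counts in a library, so that only larger differences were detectable at this depth.

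At 7 weeks the control libraries had Mt1 at 112, 126, 109, 111 and 147 CPM, and the TETA libraries at 111, 112, 110 and 98.5 CPM. In TETA, 3 of the 4 libraries lay within the control range, and control replicate 5 was higher than every other library. The log2 difference was -0.16 (SE 0.069, 95% interval -0.30 to -0.01, edgeR adjusted p = 0.166), without control replicate 5 it was -0.08, and with the striatal marker level as a covariate it was -0.45 (edgeR adjusted p = 0.974). For Mt2 the controls were at 69.5, 69.3, 58.1, 64.2 and 80.7 CPM and the TETA libraries at 67.5, 73.7, 61.2 and 58.5 CPM. All 4 TETA values lay inside the control range, with a difference of -0.06 (SE 0.074, -0.22 to 0.09).

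Mt3 was at 178, 207, 188, 177 and 207 CPM in the 7-week controls and at 192, 156, 157 and 179 CPM in TETA. A pair of TETA libraries lay below every control and the other pair inside the control range, with a difference of -0.15 (SE 0.059, -0.28 to -0.03, edgeR adjusted p = 0.110). This gene was the only one of the 10 whose call turned on a single library: without TETA replicate 1 the difference was -0.21 with an edgeR adjusted p of 0.0249, and over the other libraries left out in turn the adjusted p ran from 0.0730 to 0.317. The astrocyte marker sum was lower in TETA at 7 weeks as given above, and its part in the values of Mt1 and Mt3 was not tested. In bulk tissue, fewer cells of a type and less RNA per cell cannot be told apart.

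Mtf1 was at 38.3, 37.7, 35.8, 38.3 and 37.2 CPM in the controls at 7 weeks and at 41.7, 36.7, 40.7 and 40.6 CPM in TETA. In TETA, 3 libraries lay above every control and replicate 2 inside the control range, with a log2 difference of 0.10 (SE 0.047, 0.01 to 0.20, edgeR adjusted p = 0.177). Slc30a1 was at 42.9, 42.1, 41.1, 43.1 and 38.8 CPM in controls and at 46.2, 37.6, 36.3 and 39.0 CPM in TETA. One TETA library was the highest of all and a pair of them the lowest, with a difference of -0.05 (SE 0.060, -0.18 to 0.07).

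The vesicle transporter gene Slc30a3 was at 139, 132, 119, 137 and 143 CPM in controls at 7 weeks and at 131, 151, 145 and 144 CPM in TETA. In TETA, 3 libraries lay above every control, and the difference was 0.10 (SE 0.049, edgeR adjusted p = 0.232). Slc30a10 ran from 17.2 to 24.8 CPM in controls and from 19.2 to 22.9 CPM in TETA, with a difference of 0.01 (SE 0.086). Slc39a8 ran from 3.50 to 4.30 CPM in controls and from 3.27 to 4.37 CPM in TETA, with a difference of -0.04 (SE 0.13) and the widest interval of the stage, -0.31 to 0.22. Slc39a10 was at 374, 379, 393, 374 and 313 CPM in controls and at 370, 361, 382 and 387 CPM in TETA, a difference of 0.04 (SE 0.047), with control replicate 5 the lowest library. Slc39a14 ran from 32.4 to 38.0 CPM in controls and from 35.3 to 38.7 CPM in TETA, with a difference of 0.07 (SE 0.051).

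**Figure D2:**
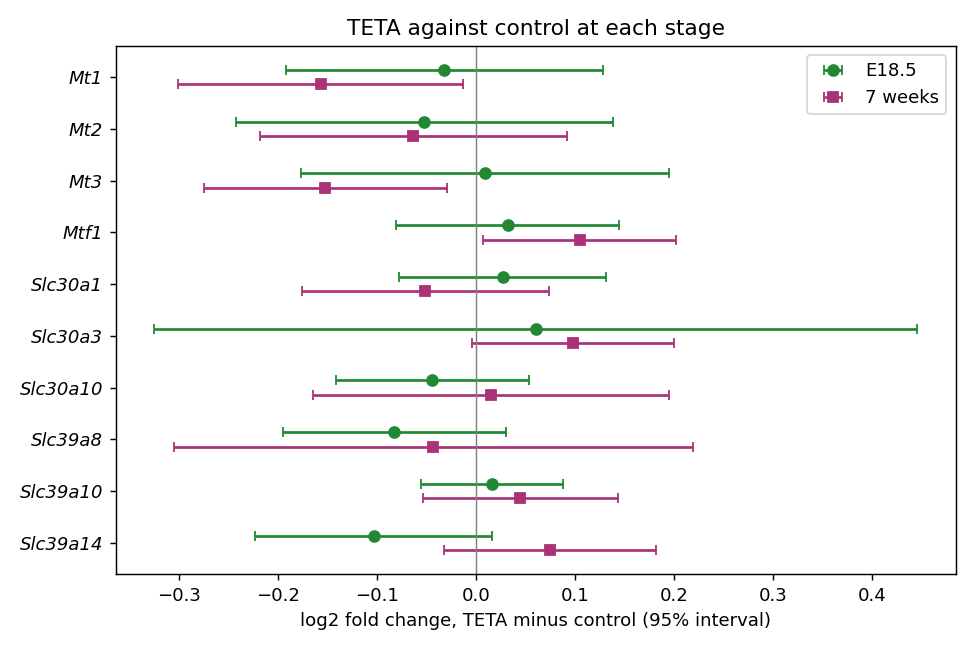
Log2 fold change, TETA minus control, of each gene at E18.5 (circles) and 7 weeks (squares), from the edgeR fit of each stage, with 95% intervals that are not adjusted for the number of genes. The E18.5 intervals all include 0, and at 7 weeks those of Mt1 and Mt3 lie below 0 and that of Mtf1 above it, although none passed the adjusted threshold.

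Whether the difference between TETA and control itself changed with stage was tested by an interaction in 1 fit of all 21 libraries. Among 14660 genes tested, 3.1% passed, and none of the 10 did. Slc39a14 was the only one under 0.05 before adjustment, with an interaction of 0.17 on the log2 scale (SE 0.080, edgeR adjusted p = 0.304). For Mt1 the interaction was -0.14 (SE 0.11, 95% interval -0.37 to 0.09) and for Mt3 it was -0.17 (SE 0.12, -0.41 to 0.07). These intervals leave room for differences between stages as large as the 7-week values themselves.

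The stages differed far more than the treatments. Control libraries at 7 weeks were compared with control libraries at E18.5 in the fit of all 4 groups, and all 10 genes passed, 8 higher and 2 lower at 7 weeks. Of the 14660 genes tested, 44% passed as higher and 45.3% as lower, so that passing alone says little. For the 10 genes the libraries of the 2 stages did not overlap, in controls or over both treatments, and among controls 79.5% of all genes did not overlap. The median log2 difference of the 10 genes was 0.95, against -0.02 over all genes tested. The stages came in separate tables, and stage may go with brain region, so these cannot be told apart. Of the 6 E18.5 controls, 4 had a Y-linked sum of 170 to 219 CPM, as high as the 7-week libraries or higher. Those 4 had Mt1 at 9.22 to 11.6 CPM and Slc30a3 at 1.57 to 2.43 CPM, the same ranges for Mt1 and Slc30a3 as all 6.

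Slc30a3 had the largest stage difference of the 10, at 1.57 to 2.43 CPM in the E18.5 controls (mean 1.85 ± 0.353, SD, n = 6) and 119 to 143 CPM at 7 weeks (mean 134 ± 9.39, n = 5). The difference was 6.15 on the log2 scale (SE 0.092), or 70.8-fold (edgeR adjusted p = 1.95e-32), and 0.621% of all genes had a larger rise. Mt1 rose 12.1-fold, from 10.02 ± 0.896 to 121 ± 15.9 CPM (log2 difference 3.60, SE 0.074, edgeR adjusted p = 1.00e-28), with 3.59% of genes above it. Mt2 rose 7.42-fold, from 9.28 ± 1.08 to 68.4 ± 8.32 CPM, and Mt3 rose 5.65-fold, from 33.8 ± 3.30 to 192 CPM (177 to 207 over the 5 libraries). All 3 metallothioneins rose by several fold, and Slc30a3 went from barely detected to the level of the metallothioneins in CPM.

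The remaining genes moved less. Slc39a10 rose 2.23-fold, from 165 ± 2.90 to 367 ± 31.0 CPM, Slc39a14 rose 1.67-fold, Slc30a1 rose 1.61-fold and Mtf1 rose 1.39-fold. Of all genes, 34.8% rose more than Mtf1. The importer Slc39a8 fell by 1.66 on the log2 scale (SE 0.074, edgeR adjusted p = 1.05e-19), from 12.6 ± 0.305 to 3.98 ± 0.304 CPM, and 91.6% of genes lay above it. Slc30a10 fell by 0.43 (SE 0.065, edgeR adjusted p = 3.77e-07), from 28.6 ± 1.30 to 21.1 ± 3.09 CPM.

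In TETA libraries all 10 genes also passed between the stages, in the same directions as in controls, where 43.6% of genes passed as higher and 44.5% as lower. The log2 differences were 6.18 for Slc30a3, 3.46 for Mt1, 2.87 for Mt2, 2.33 for Mt3, 1.17 for Slc39a10, 0.91 for Slc39a14, 0.60 for Slc30a1 and 0.54 for Mtf1. Slc39a8 differed by -1.63 and Slc30a10 by -0.39. With library totals alone as the scaling, the median of all genes between control stages moved from -0.02 to -0.17, and the 10 genes kept their directions and calls under that scaling and under DESeq2's.

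**Figure D3:**
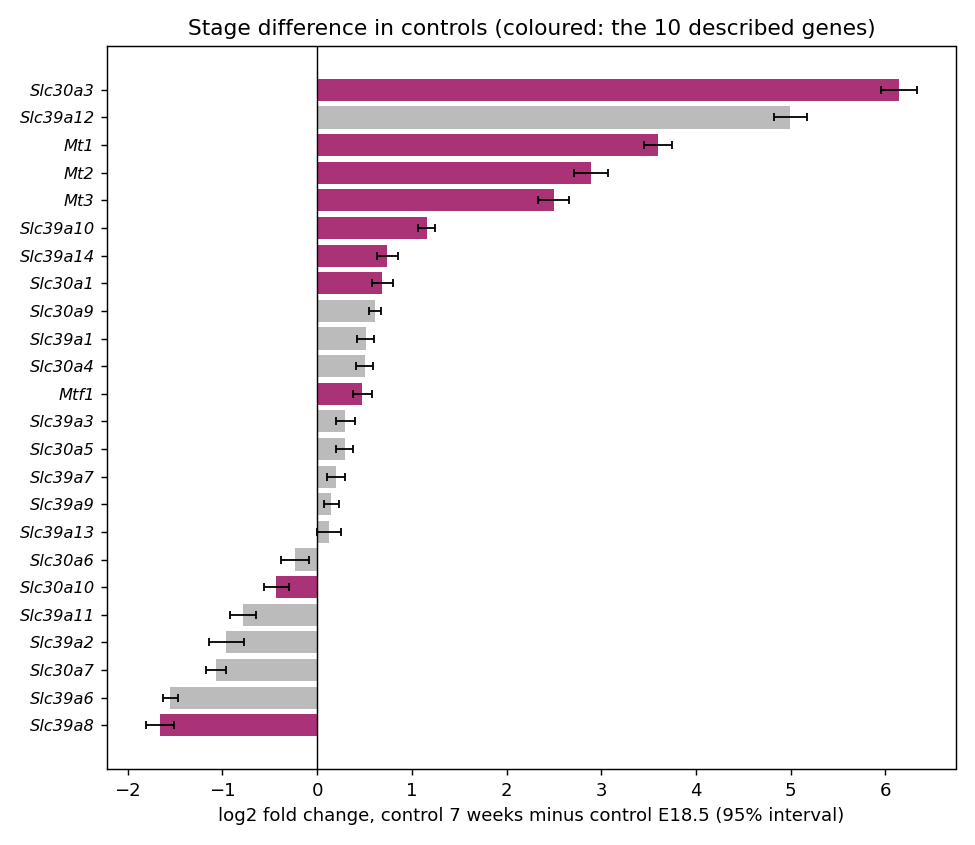
Log2 fold change between 7 weeks and E18.5 in control libraries, with 95% intervals from the joint edgeR fit. The 10 genes are coloured, and the other tested Slc30 and Slc39 genes are grey. Of the 10 genes, Slc30a3 and the metallothioneins rose most, and Slc39a8 and Slc30a10 fell.

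Other tissue components moved between the stages as well. The summed astrocyte marker level was 552 to 630 CPM in the E18.5 controls and 6010 to 6906 CPM in the 7-week controls. Of the 11 markers 10 passed as higher and 1 as lower, where 44% of all genes passed as higher and 45.3% as lower. One of the 11, Gjb6, had too few counts to test within E18.5. The 7 oligodendrocyte markers went from a sum of 61.4 to 71.7 CPM to one of 6799 to 8030 CPM. Blood markers, which carry RNA of red cells, went from 127 to 258 CPM to 35.2 to 52.8 CPM. The part of these shifts in the stage differences of the zinc genes was not tested.

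The genes' levels were compared with each other per kilobase of exon. Over the union of all annotated exons, Mt3 was the highest of the 10 in the E18.5 controls at 31.7 CPM per kilobase, followed by Slc39a10 at 27.0 and Mt2 at 15.8, and the libraries of neighbours Mt3 and Slc39a10 met in their ranges. Mt1 followed at 8.04, Slc30a1 at 4.94, Slc30a10 at 4.90, Mtf1 at 3.01, Slc39a14 at 2.02, Slc39a8 at 1.64 and Slc30a3 at 0.655 CPM per kilobase. Slc30a1 and Slc30a10 did not differ beyond their spread. At 7 weeks the order in controls was Mt3 at 180, Mt2 at 116, Mt1 at 97.1, Slc39a10 at 60.1, Slc30a3 at 47.4, Slc30a1 at 7.93, Mtf1 at 4.20, Slc30a10 at 3.62, Slc39a14 at 3.38 and Slc39a8 at 0.519 CPM per kilobase. The library ranges of Mt2 and Mt1 met, as did those of Mtf1 and Slc30a10 and of Slc30a10 and Slc39a14. Slc30a3 had moved from the last place to the fifth.

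Several places in this order depended on the transcript model. The exon union of Mt1 is 1246 bases, and its principal transcript in the annotation is 549 bases, against 588 and 511 bases for Mt2. With principal transcripts the 7-week control levels were 220 CPM per kilobase for Mt1 and 134 for Mt2, with ranges that did not meet, and at E18.5 they were 18.3 and 18.2, with ranges that did. Slc39a14 was then at 4.34 at E18.5, above Slc39a8 at 3.56 and Mtf1 at 3.52, and at 7.23 at 7 weeks, above Mtf1 at 4.91 and Slc30a10 at 3.62. Mt3 stayed the highest of the 10 at both stages, with 63.1 at E18.5 and 357 at 7 weeks.

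**Figure D4:**
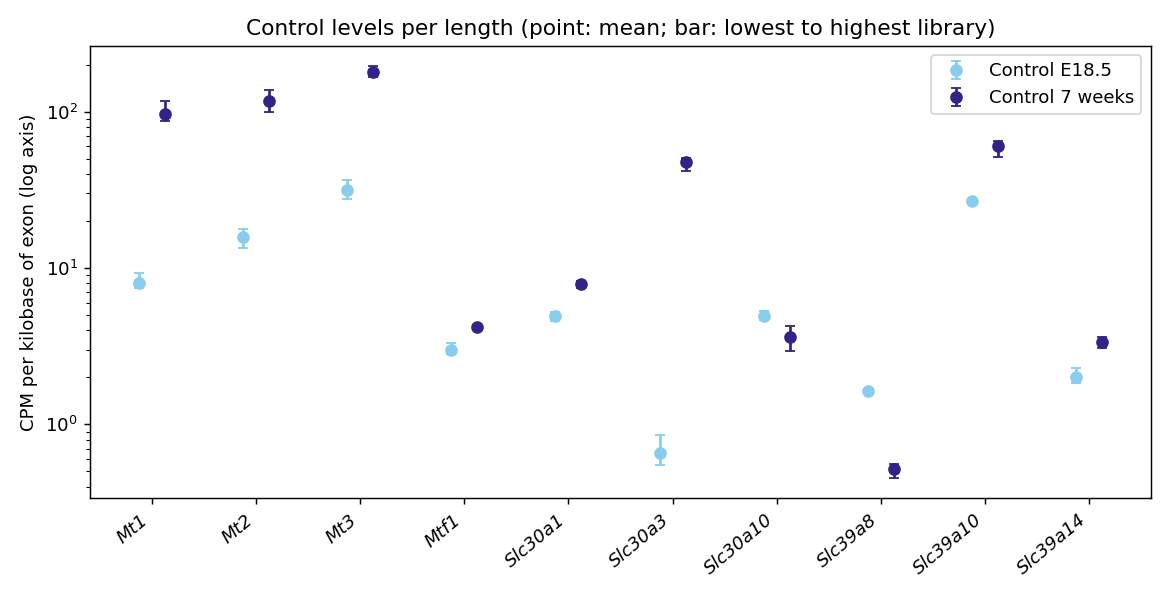
Level of each gene in control libraries per kilobase of exon union (CPM per kilobase, log axis) at E18.5 and 7 weeks, as the mean with the range over libraries. The metallothioneins lead at 7 weeks, and Slc30a3 moves from 0.655 to 47.4.

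Within a library the ratio of Mt1 to Mt2 counts does not depend on library size or scaling. The ratio was 1.09 ± 0.094 in E18.5 controls (n = 6), 1.104 ± 0.059 in E18.5 TETA (n = 6), 1.77 ± 0.106 in 7-week controls (n = 5) and 1.66 ± 0.116 in 7-week TETA (n = 4). TETA and control ratios overlapped at each stage, and the stages did not overlap, with the highest E18.5 library at 1.21 and the lowest 7-week library at 1.51. The Mt3 to Mt1 ratio moved the other way, from 3.39 ± 0.355 in E18.5 controls to 1.59 ± 0.113 in 7-week controls. The metallothionein genes thus rose by unequal amounts between the stages, Mt1 most.

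How the genes varied among libraries of 1 group was described by the Pearson correlation of log2 CPM centred on the group means, over all 21 libraries, each point being 1 library whose depth and RNA composition both genes share. Among 13433 genes tested at both stages, Mt2 had the highest r with Mt1 (0.814), closely followed by Asrgl1 (0.802), Pop4 (0.799), Cpe (0.766) and Tmem219 (0.761). For Mt2 the value was 0.813 over the E18.5 libraries and 0.822 over the 7-week ones, where Asrgl1 (0.924) and Cpe (0.847) were higher. By Spearman's rho, Pop4 (0.821) and Cpe (0.799) were above Mt2 (0.796), so the order of these genes was not settled. Mt3 was at 0.524, and 99% of genes were below 0.607. Slc39a14 lay at the other end, with r = -0.705, -0.632 at E18.5 and -0.843 at 7 weeks.

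The 2 libraries farthest from the median of Mt1 were control replicate 5 at 7 weeks and TETA replicate 3-2 at E18.5. Without them r was 0.755 for Asrgl1, 0.722 for Mt2 and -0.616 for Slc39a14, over 19 libraries, so that Asrgl1 was then above Mt2. The correlation of Mt1 with Slc39a10 rested on control replicate 5: it was -0.346 over all libraries and 0.052 without that one. That library had the highest Mt1 and Mt2 and the lowest Slc30a1, Slc39a10 and Slc39a14 of the 7-week controls, and also the highest astrocyte marker sum (6906 CPM). Exon unions differ widely in length between Mt1 (1246 bases), Mt2 (588 bases) and Slc39a14 (10550 bases), against a median of 4578.5 bases over 14076 matched genes, and the part of transcript length in these correlations was not tested. Over the 45 pairs of the 10 genes r ran from -0.705 to 0.814, with a median of 0.033.

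**Figure D5:**
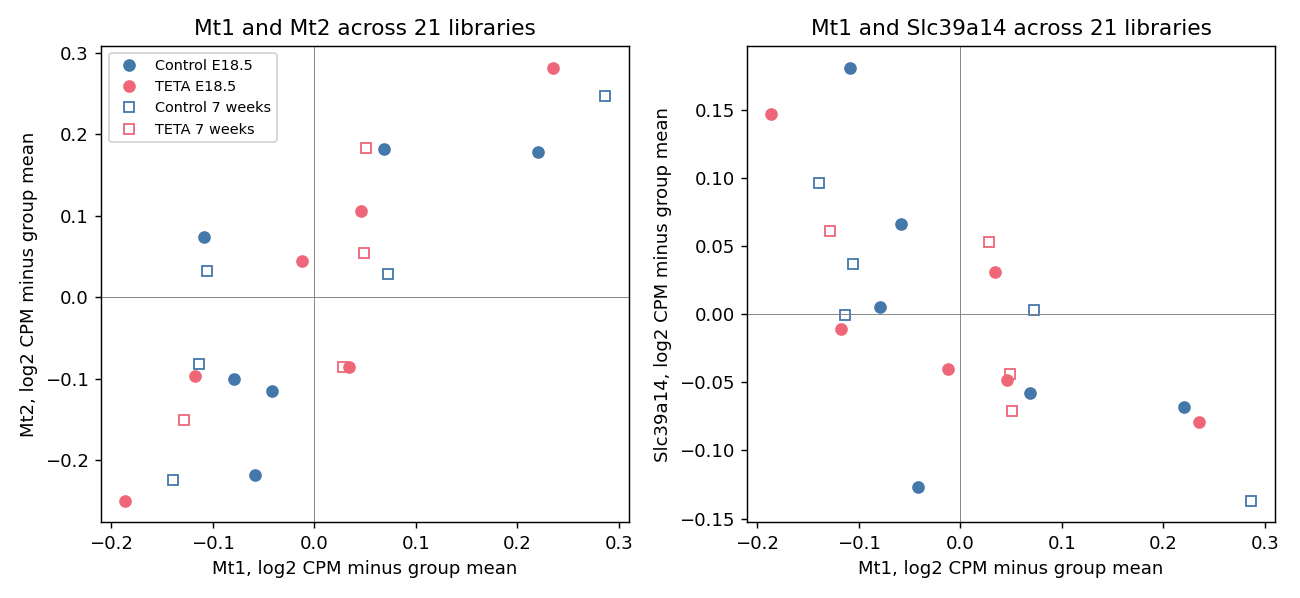
Deviation of Mt1 from its group mean in each of the 21 libraries (log2 CPM) against that of Mt2 (left) and of Slc39a14 (right), with 1 point per library by group. Mt2 rises with Mt1 (r = 0.814) and Slc39a14 falls with it (r = -0.705).

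The zinc families gave 1 gene that passed in TETA. Among 8 Slc30 genes with enough counts, including the 3 above, none passed at E18.5 or at 7 weeks, where 0% and 9.96% of all genes passed. At 7 weeks 1 of the 8 was under 0.05 before adjustment, against 24% of all genes. Of 12 Slc39 genes, also including the 3 above, none passed at E18.5 and 1 was higher at 7 weeks, where 5.67% of all genes were. This was Slc39a2, which encodes the plasma membrane zinc importer ZIP2. Their median log2 differences at 7 weeks were -0.02 (Slc30) and -0.04 (Slc39). The fourth mouse metallothionein gene, Mt4, had 0 counts in all 21 libraries, and Slc30a2, Slc30a8, Slc39a4 and Slc39a5 had too few counts to test.

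At 7 weeks Slc39a2 was at 5.39, 4.75, 3.91, 5.29 and 4.43 CPM in controls and at 7.16, 6.83, 7.98 and 6.80 CPM in TETA. Every TETA library lay above every control, with a log2 difference of 0.61 (SE 0.11, edgeR adjusted p = 0.00118), and 0.744% of all genes rose more. It passed with each library left out in turn. At E18.5 the difference was -0.15 (SE 0.075, edgeR adjusted p = 0.996), from 8.26 to 11.1 CPM in controls and 7.82 to 8.98 CPM in TETA, and the interaction passed (0.75, SE 0.13, edgeR adjusted p = 0.000638). With the striatal marker level as a covariate the 7-week difference was 0.37 and did not pass. In all, 7 genes passed with that covariate at 7 weeks, against 1418 without it, so that striatal marker level and TETA cannot be told apart there.

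Between the control stages, and with the same 6 genes included, 5 Slc30 genes passed as higher and 3 as lower, and 7 Slc39 genes as higher and 4 as lower, where 44% of all genes passed as higher and 45.3% as lower. Slc39a12, a zinc importer gene of the brain, rose 31.9-fold, from 1.60 ± 0.335 to 50.2 ± 3.56 CPM, and 1.3% of genes rose more. Slc30a9 rose 1.53-fold and Slc30a4 rose 1.41-fold. The importer gene Slc39a6 fell by 1.55 on the log2 scale, from 141 to 48.3 CPM, the secretory pathway transporter gene Slc30a7 fell by 1.07 and Slc39a2 fell by 0.96. With library totals as the scaling, Slc39a7 and Slc39a9 no longer passed, at 0.05 and 0.00, and Slc39a13, at 0.13 without passing, turned to -0.02. Slc39a13 did pass in DESeq2 (0.16, adjusted p = 0.0154) and with counts as deposited (0.15, edgeR adjusted p = 0.0181).

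Lists of related genes were read in the same way. Among 10 genes known to respond to zinc or MTF-1, 5 of which are among those described above, 1 passed at 7 weeks, a share near the 9.96% of all genes. This was Ndrg1, a gene of the hypoxia and metal response, at 0.22 (SE 0.052, edgeR adjusted p = 0.0109). None of 9 synaptic zinc genes, Slc30a3 included, passed in TETA at either stage, with Grin1 at -0.04 and Slc17a7 at -0.00 at 7 weeks. Between stages 7 of the 9 passed as higher, against 44% of all genes, among them Slc17a7 (the vesicular glutamate transporter VGLUT1), at 4.43 on the log2 scale, and the NMDA receptor subunit genes Grin2a at 4.43 and Grin1 at 2.64. Ap3m2, a subunit gene of the AP-3 adaptor, rose by 1.48, and Ap3b2, another one, fell by 0.26.

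The 8 manganese transport genes examined include Slc30a10, Slc39a8 and Slc39a14 from above. Of the 8, 1 was lower in TETA at 7 weeks, where 4.28% of all genes were: Tfrc, the transferrin receptor (-0.22, SE 0.058, edgeR adjusted p = 0.0195). It did not pass without TETA replicate 2 (edgeR adjusted p = 0.0653) or in DESeq2 (adjusted p = 0.0742). Glucocorticoids are known inducers of Mt1 and Mt2, and 5 of 12 glucocorticoid-responsive genes were higher in TETA at 7 weeks, where 5.67% of all genes were. The median over the 12 was 0.27. Sgk1, a kinase gene, was at 0.70 (SE 0.15, edgeR adjusted p = 0.00459), Cdkn1a, a cell cycle inhibitor, at 0.55 (SE 0.063, edgeR adjusted p = 1.04e-05), Tsc22d3, which encodes GILZ, at 0.38 and Nfkbia, the NF-kappa-B inhibitor, at 0.37. Tsc22d3 did not pass without TETA replicate 2 (edgeR adjusted p = 0.0743) or in DESeq2 (adjusted p = 0.114). Neither Mt1 nor Mt2 passed in these libraries, and a relation of the list to them was not tested. None of 6 acute phase and cytokine-responsive genes passed at 7 weeks and none of 5 at E18.5, where no gene of any list passed.

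Astrocyte markers, which mark the cells where Mt1 and Mt2 are mainly expressed, gave 3 genes of 11 that were lower in TETA at 7 weeks, where 4.28% of all genes were. The glutamate transporter gene Slc1a2 was at -0.21 (SE 0.033, edgeR adjusted p = 0.000383), Aldoc at -0.21 and Aldh1l1 at -0.21. Aldh1l1 did not pass without TETA replicate 3 (edgeR adjusted p = 0.0749) or replicate 4 (edgeR adjusted p = 0.0671). The median over the 11 markers was -0.12, and Gja1, the gap junction gene, was at 0.10 without passing (edgeR adjusted p = 0.195). The metallothioneins did not pass, at -0.16 for Mt1, -0.06 for Mt2 and -0.15 for Mt3, and the part of astrocyte RNA in their values was not tested.

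Markers of other cells were read at 7 weeks beside these, where 5.67% of all genes were higher and 4.28% lower in TETA, so that a single gene of a short list says little. Of 8 meningeal fibroblast markers, 3 were lower in TETA: Slc6a13 at -0.47 (edgeR adjusted p = 0.00727), the collagen gene Col1a2 at -0.40 (edgeR adjusted p = 0.00906) and Col1a1 at -0.55 (edgeR adjusted p = 0.00932). Of 5 choroid plexus markers tested, 1 was lower, Clic6, at -1.60 (edgeR adjusted p = 0.00282), and 1 of the 5 had a value above 0. Of 8 endothelial markers 1 was higher, the VEGF receptor gene Flt1, at 0.22 (edgeR adjusted p = 0.0105), and 3 of the 8 had values below 0. Among 8 cortical excitatory neuron markers, Neurod2 was higher at 0.22 (edgeR adjusted p = 0.0102) and Emx1 lower at -0.26 (edgeR adjusted p = 0.0236). The striatal genes lower in TETA included Adora2a, an adenosine receptor gene, at -2.34, Rgs9 at -1.40 and Ppp1r1b, which encodes DARPP-32, at -1.08. Of 4 Y-linked genes, Eif2s3y was higher at 0.26 (edgeR adjusted p = 0.0307). Emx1 and Eif2s3y lost their calls without single libraries, with edgeR adjusted p of 0.0504 to 0.112 for Emx1 without control replicate 2 or 5 or TETA replicate 2 or 3. For Eif2s3y it was 0.0698 to 0.112 without control replicate 2 or 3 or TETA replicate 1, 2 or 3. The part of these cells in the values of the zinc genes was not tested.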

How the data were processed

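RNA from mouse brain was sequenced from stranded mRNA libraries. The authors deposited 1 table of raw gene counts for each stage. Per the submitters' processing notes, the tools were STAR 2.7.1a and featureCounts 2.0.1 and the genome build was mm10. The annotation and strand setting are not given in the sources used here. In the E18.5 table, 1940 genes at 0 in control replicate 1-1 held only multiples of 11 elsewhere, and these were divided by 11. None of the 10 genes was among them.

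Counts were tested in edgeR 4.0.16 (glmQLFit and glmQLFTest, TMM, filterByExpr with a minimum count of 10, Benjamini-Hochberg adjustment over all genes tested, threshold 0.05). TETA was compared with control for each stage alone. Stage and interaction came from 1 fit of the 4 groups. Levels are library-size-scaled counts (CPM) on 1 TMM scale over all 21 libraries, which may differ slightly from levels scaled within a stage. An SE is the log2 difference divided by the root of F, and intervals are 95%. Log2 levels use a prior count of 2.

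The 10 genes and the gene lists were chosen with earlier results of these data known, so p-values were never adjusted over them alone. Every one of the 10 is named. From the other lists the genes named are those past the threshold in TETA, at most 4 in each direction, plus genes named by stage difference after their values were seen, and the 5 genes most like Mt1. One gene that this rule names is not reported here. DESeq2 1.42.0, other filters and scalings, covariates, replicate blocks and leaving out each library were alternatives. The edgeR fit was tested on simulated counts, for TETA against control at each stage and for the stage comparison.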

Additional observations from a re-analysis of the deposited data

Results flagged for a closer look

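Within-group spread was examined by the gap of the highest or lowest library to its nearest neighbour as a share of the group's range, for 56 groups, of which 4 were past Dixon's 95% value. Chance gives about 1 in 20. Mt1 in TETA at 7 weeks had replicate 4 at 6.62 log2 CPM against 6.78 to 6.80 in the others (share 0.876). Mt3 in TETA at E18.5 had replicate 1-2 at 4.57 against 5.07 to 5.27 (share 0.718). Slc39a10 in 7-week controls had replicate 5 at 8.29 against 8.55 to 8.62 (share 0.774). Slc39a12 in 7-week controls had replicate 3 at 5.46 against 5.66 to 5.72 (share 0.763).

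The difference between TETA and control changed with stage, by the interaction term in edgeR's quasi-likelihood test (p-values adjusted by Benjamini-Hochberg), for none of the 10 zinc genes, where 3.1% of all genes passed. Of 21 other named genes 9 passed, but these were named because they passed in TETA at 7 weeks, an effect that the interaction contains, so the count is no separate evidence. Among zinc transporters this was Slc39a2, at 0.75 on the log2 scale (adjusted p = 0.000638). Among glucocorticoid-responsive genes, Sgk1 was at 0.64 (adjusted p = 0.0438), Cdkn1a at 0.41 (adjusted p = 0.0447) and Nfkbia at 0.37 (adjusted p = 0.0339). The astrocyte gene Slc1a2 was at -0.25 (adjusted p = 0.0338). Clic6, a choroid plexus gene, was at -1.64 (adjusted p = 0.0146), and 1 control library at 7 weeks, replicate 4, held a choroid plexus marker sum of 63.8 CPM. The striatal genes were at -2.21 for Adora2a (adjusted p = 9.33e-11), -1.36 for Rgs9 (adjusted p = 5.09e-09) and -1.05 for Ppp1r1b (adjusted p = 3.63e-09). Sgk1 did not pass in DESeq2 (adjusted p = 0.0777) and Slc1a2 not with library totals as the scaling (adjusted p = 0.0576). With E18.5 counts as deposited, Cdkn1a (adjusted p = 0.0636) and Sgk1 (adjusted p = 0.0778) did not pass.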

How the results depend on the processing

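None of the 10 genes passed in TETA at E18.5 under any of 20 alternatives, and at 7 weeks 0 to 1 passed over the libraries left out in turn (Mt3 without TETA replicate 1) and none under the other alternatives. Between the control stages all 10 passed under 17 of 17 alternatives. Over all genes, DESeq2 gave 10 calls at E18.5, libraries left out in turn gave 0 to 7 calls (7 without TETA replicate 1-2, 3 without control replicate 3-2), and at 7 weeks 927 to 1392 (927 without TETA replicate 3). The striatal covariate gave 7 calls at 7 weeks, and none of the 21 other named genes passed with it. With library totals as the scaling, 67.6% of the 7-week calls were higher in TETA, against 57% with TMM, and 72% of the interaction calls were positive against 54%.

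Some differences changed sign, and of these only that of Clic6 at 7 weeks had passed the threshold as reported. At E18.5 the Y-linked covariate gave -0.0235 for Mt3 and 0.0518 for Eif2s3y. At 7 weeks the striatal covariate gave 0.00248 for Mt2, 0.35 for Slc30a1, -0.0749 for Slc30a3, -0.22 for Slc30a10 and 0.54 for Clic6. Library totals as the scaling gave interactions of 0.0127 for Mt2, 0.0105 for Tfrc and 0.0240 for Flt1, and stage differences of -0.0748 for Cdkn1a and -0.10 for Emx1. Libraries left out in turn gave at E18.5 -0.0864 to 0.00944 for Mt1, -0.0329 to 0.0951 for Mt3, -0.0659 to 0.158 for Slc30a3, -0.0799 to 0.111 for Clic6, -0.57 to 0.76 for Col1a1, -0.0157 to 0.0474 for Neurod2 and -0.0573 to 0.00625 for Tsc22d3. At 7 weeks they gave -0.125 to 0.00427 for Mt2, -0.0471 to 0.0811 for Slc30a10, -0.00704 to 0.0694 for Slc39a10 and -0.117 to 0.0169 for Slc39a8, and for the stage difference of Eif2s3y -0.429 to 0.0718. The cause was not tested.

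Replicate numbers did not pair control with TETA samples: same-numbered control and TETA libraries correlated in their deviations by -0.30 to 0.31 at E18.5 and by -0.09 to -0.02 at 7 weeks. Whether E18.5 libraries of the same group that share the first part of the number were alike was not tested. With the replicate block 0 genes passed at E18.5 (719 before adjustment; 0 and 675 with a block on the first part of the number) and 1072 at 7 weeks, with none of the 10 zinc genes in either. The block gave 0.00829 for Mt2, -0.0130 for Slc30a10 and -0.00758 for Slc39a10 at 7 weeks, and Ndrg1 (adjusted p = 0.0511), Aldh1l1 (0.0529) and Emx1 (0.0851) did not pass with it in edgeR.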
